A study of Mus musculus with 60 samples.

Results

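Spindle carcinoma is the malignant skin tumour in which epidermal cells have lost their epithelial form and grow as elongated, fibroblast-like cells. Of 60 carcinomas from 55 mice in the series, 14 carcinomas from 13 mice carried this histology label, and the p53 label split them into 5 mutant tumours from 4 mice and 9 not mutant tumours from 9 mice. All were chosen by those 2 labels alone, with no measured value. The mice were FVBBX animals, a backcross of (SPRET/Ei x FVB/N) hybrids to FVB/N, and in both groups the tumours were induced on dorsal back skin with the carcinogen DMBA and the promoter TPA. The strain, carcinogen and promoter were therefore shared by all the mice compared, and each animal carried its own mixture of parental alleles. The sources used here give neither the age of the animals nor the p53 mutations themselves, nor how the mutations were found. Expression was measured on Affymetrix arrays as log2 RMA values, which are log2 intensities normalised across all arrays. The 2 mutant tumours that came from the same animal, mutant mouse 4, were averaged, so that the mouse was the replicate. The comparison asks which genes differed in level between spindle carcinomas with and without the p53 mutant label.

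The other labels overlapped between the groups. Females were 3 of 4 mutant mice and 4 of 9 not mutant mice (two-sided Fisher's exact test p = 0.559), and agouti coats 2 of 4 and 3 of 9 (exact p = 1.00). Papillomas at 20 weeks averaged 3.25 in mutant mice and 7.67 in not mutant mice (two-sided exact permutation test p = 0.389). Weeks to papilloma averaged 10.5 and 14.0 (same test, p = 0.294). Backcross origin was F1BSF1 in 2 and F1BSF3 in 2 of 4 mutant mice. In not mutant mice it was F1BSF1 in 4, F1BSF2 in 1, F1BSF3 in 2 and F1BSF4 in 2 of 9. Origins F1BSF2 and F1BSF4 thus held no mutant mouse. A label named tumor_class, whose meaning is not given in the sources used here, was 2 for 3 of 5 mutant tumours and for 2 of 9 not mutant tumours (Fisher's exact p = 0.266), and 1 for the rest. That test counted tumours and not mice, so it took the 2 tumours of mutant mouse 4, 1 of each class, as independent. All tumours were labelled poorly differentiated except that of mutant mouse 3, labelled moderate. As a sign of RNA quality, the log2 excess of the Gapdh control probe set of the 3′ end over that of the 5′ end was -0.08 to 0.34 in mutant mice and -0.17 to 0.45 in not mutant mice (exact permutation p = 0.473), and the same excess for Actb 0.54 to 1.26 and 0.50 to 1.47 (exact permutation p = 0.946).

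Several arrays stood apart or went against a label. The second tumour of mutant mouse 4 correlated with the other spindle carcinomas at a median r of 0.829 across 12791 genes, against a median of 0.915 among the rest. Its lowest correlation, 0.800, was with the other tumour of its own mouse. It also had the highest 3′ over 5′ excess of the 14 spindle carcinomas, 0.543 for Gapdh and 1.88 for Actb, against 0.00887 and 0.65 in the other tumour of its mouse. Either Xist or the Y-linked genes, but not both, went against the male label in both tumours of mutant mouse 4 and in not mutant mouse 8. The first tumour of mutant mouse 4 had Xist at 10.6 together with a mean of 5.92 over 3 Y-linked genes, and the second had 5.49 and 3.53. Not mutant mouse 8 had 8.57 and 6.44. The midpoint between the medians of the labelled sexes was 8.47 for Xist and 4.53 for the Y-linked genes, so the Xist value of not mutant mouse 8 was near it. Without mutant mouse 4 and not mutant mouse 8, the number of genes past the adjusted threshold of the comparison below was 0, as it was with them.

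The marker levels fitted the spindle label in most not mutant tumours, but less clearly in the mutant ones. Vim, the mesenchymal intermediate filament gene, had a median of 12.6 in mutant and 13.6 in not mutant spindle carcinomas, against 11.8 in 38 squamous cell carcinomas (SCCs). Epcam, an epithelial adhesion molecule, ranged between 6.21 and 12.0 in mutant and between 5.07 and 11.5 in not mutant tumours. Its median was 10.74 in mutant tumours, 6.43 in not mutant tumours and 10.95 in SCCs. Mutant medians of Krt5 (12.72), Trp63 (9.583) and Cdh1 (9.235) were also near the SCC medians of 13.2, 9.985 and 9.744. The not mutant medians of these 3 genes were 9.14, 5.36 and 7.026. The mean over 25 epithelial adhesion genes lay above the SCC median of 9.07 in 2 of 5 mutant and 2 of 9 not mutant tumours. These 4 thus held epithelial transcripts at SCC levels. The tumour of mutant mouse 1, at 8.61, was below that median but was of tumor_class 2, as these 4 were. In bulk tumour RNA, fewer cells of a type and less RNA per cell cannot be told apart.

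The tumour suppressor p53 is a transcription factor that is held at a low level by Mdm2, a ubiquitin ligase that is itself a p53 target. DNA damage and oncogene activity free p53 from Mdm2, and p53 then switches on genes of cell cycle arrest, cell death and DNA repair. In chemically induced skin carcinogenesis, loss of p53 function is known to favour the step of papillomas to carcinomas. Mutations of the DNA-binding domain commonly abolish target gene activation while the protein accumulates. p53 binds DNA as a tetramer, at a pair of decamers that each follow the same consensus.

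Across the 12791 genes tested, no gene passed the threshold, a Benjamini-Hochberg adjusted limma p under 0.05, so percent called was 0. The smallest adjusted p was 0.898. At an unadjusted p under 0.05 there were 638 genes (4.99%), of which 351 (2.74%) had a higher and 287 (2.24%) a lower mean in mutant mice. The median standard error of a difference was 0.215 on the log2 scale and the median half-width of its 95% confidence interval 0.463. Smaller differences could thus not be told from 0 for a typical gene even before adjustment. That interval is not adjusted for the number of genes, so differences well above 0.463 could also miss the adjusted threshold. In 13 genes (0.102%) the 2 groups of mice did not overlap, 4 with higher (0.0313%) and 9 with lower values (0.0704%) in the mutant mice.

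The p53 targets as a group had a median difference close to that of all genes. Of 41 listed targets 38 were measured above the filter. Their median difference, mutant minus not mutant, was -0.0071 against -0.00072 over all genes, with 18 higher and 20 lower. With tumor_class as a covariate the p53 target median difference was -0.163, and the median over all genes in that fit is not given here. The SD of the list mean between mice was 0.161, which is a spread between animals and not the error of that median. Without the covariate, 4 targets were lower and 1 was higher at an unadjusted p under 0.05, against 2.24% and 2.74% of all genes. None passed adjustment and in none did the groups separate. Trp53 itself, Bax and Gdf15 were not analysed here.

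The targets with the smallest unadjusted p among the lower ones were Trp53inp1, Ccng1, Rps27l and Zmat3. Ccng1, the cell cycle regulator cyclin G1 and a classical p53 target, had log2 values of 8.59, 9.32, 8.91 and 9.13 in mutant mice 1 to 4. In the not mutant mice the lowest value was 9.05, the median 9.65 and the highest 10.4. All mutant values lay below the not mutant median, and only mutant mice 2 and 4 reached into the not mutant range. The difference was -0.68 ± 0.22 (SE; unadjusted p = 0.00958, adjusted p = 0.898). The other probe sets of Ccng1 gave differences of -0.71 and -0.79.

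Trp53inp1, a nuclear protein that promotes p53-dependent cell death, had values of 8.08, 8.40, 8.64 and 8.72 in mutant mice, against a lowest of 8.64, a median of 9.01 and a highest of 9.72 in not mutant mice. The overlap was confined to mutant mice 3 and 4 and the lowest not mutant animals. The difference was -0.60 ± 0.20 (unadjusted p = 0.00899, adjusted p = 0.898), and with the second tumour of mutant mouse 4 alone it was -0.45. Rps27l, a ribosomal protein paralogue induced by p53, had values of 11.0, 11.4, 10.9 and 11.0 in mutant mice, against a lowest of 11.1, a median of 11.6 and a highest of 11.8 in not mutant mice. Mutant mouse 2 alone lay within the not mutant range. The difference was -0.47 ± 0.16 (unadjusted p = 0.0136, adjusted p = 0.898).

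Zmat3, an RNA-binding zinc finger protein and p53 target, had values of 7.14, 7.13, 6.66 and 7.05 in mutant mice, against a lowest of 6.77, a median of 7.61 and a highest of 8.10 in not mutant mice. Only not mutant mouse 1, at the lowest value, lay among the mutant animals. The difference was -0.56 ± 0.22 (unadjusted p = 0.0218, adjusted p = 0.898). Ei24, an endoplasmic reticulum protein that p53 induces, differed by -0.30 ± 0.14, and all 4 mutant mice were below the not mutant median. The single target with a higher mean and an unadjusted p under 0.05 was Ddb2, the DNA damage recognition factor, at 0.45 ± 0.20, with a mean of 6.48 in mutant and 6.03 in not mutant mice. Without mutant mouse 4, whose second tumour stood apart, the differences were -0.722 for Ccng1, -0.69 for Trp53inp1, -0.438 for Rps27l and -0.58 for Zmat3. With tumor_class as a covariate they were -0.28 for Rps27l and -0.33 for Zmat3, and 0.24 for Ddb2.

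**Figure D1:**
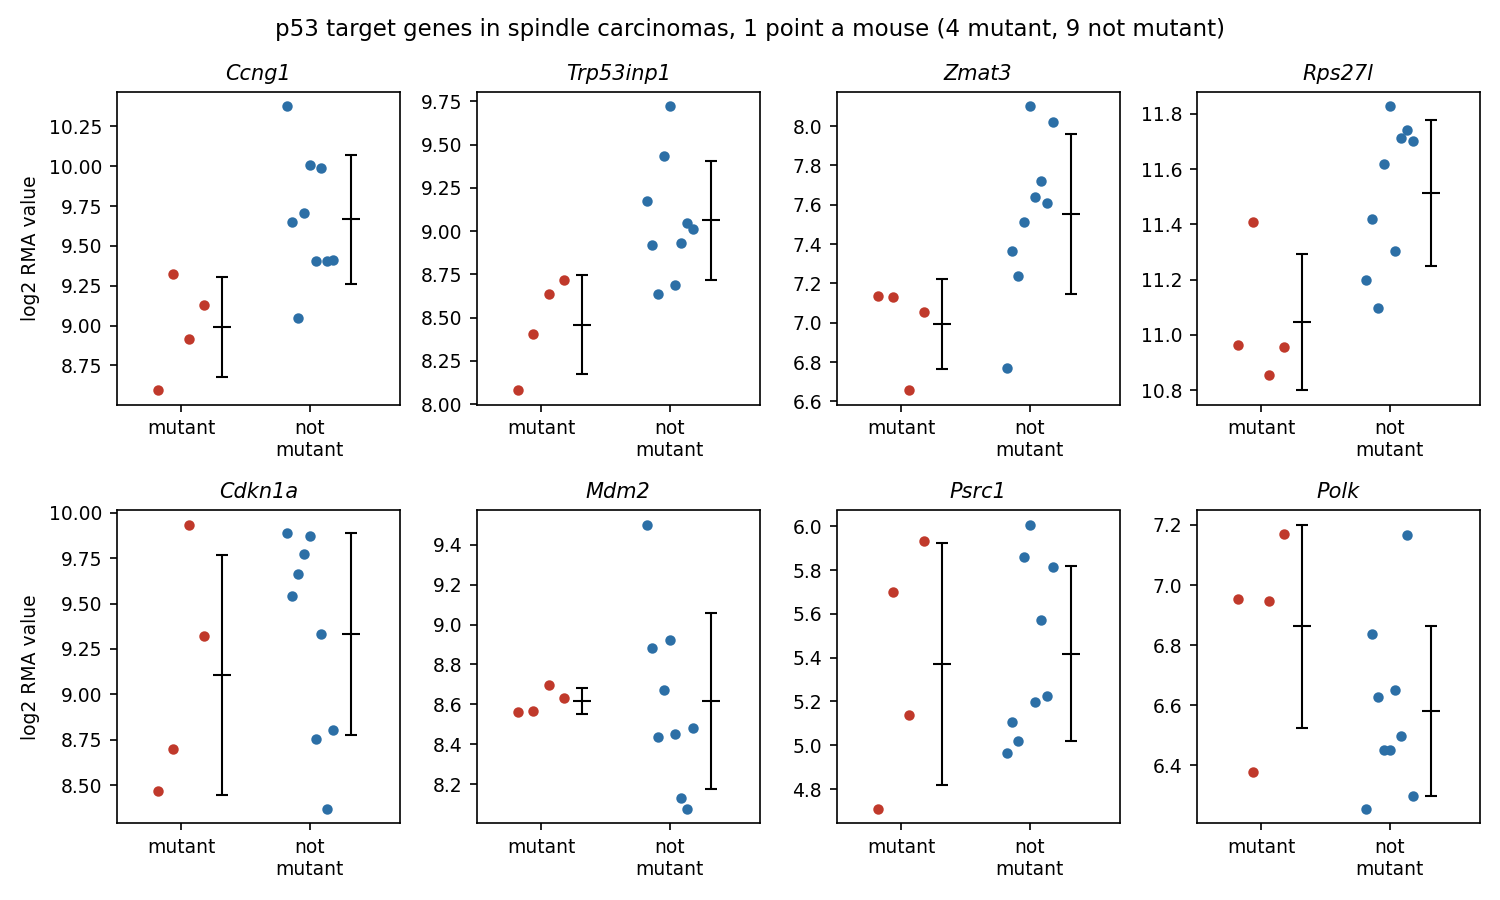
Log2 RMA values (vertical axis) of 8 p53 target genes in 4 mutant mice (left, red) and 9 not mutant mice (right, blue), 1 point a mouse, with the mean and SD as black bars. Ccng1, Trp53inp1, Zmat3 and Rps27l lie lower in most mutant mice with some overlap, while Cdkn1a, Mdm2, Psrc1 and Polk overlap widely; none passed adjustment.

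The best-known targets differed by less than the spread between mice. Cdkn1a, the cyclin-dependent kinase inhibitor p21, had values of 8.47, 8.70, 9.93 and 9.32 in mutant mice, against a lowest of 8.37, a median of 9.54 and a highest of 9.89 in not mutant mice. The mutant animals spanned nearly the full range of the not mutant ones, and the difference was -0.23 with a 95% interval of -0.94 to 0.48. Mdm2, the ubiquitin ligase that p53 both induces and is degraded by, had 8.56, 8.57, 8.70 and 8.63 in mutant mice, against a lowest of 8.08, a median of 8.48 and a highest of 9.5 in not mutant mice. The mutant mouse values were close together within the not mutant range, but the 8.63 of mutant mouse 4 was the mean of 8.33 and 8.94 in its 2 tumours. The interval of the Mdm2 difference was -0.48 to 0.48. Btg2, an antiproliferative gene, and Eda2r, a death domain receptor, each differed by -0.65 with standard errors of 0.37. The other Btg2 probe set gave -0.23. Perp, a desmosomal protein that p53 and p63 induce, differed by 0.77 ± 0.72, and the sign turned with tumor_class as a covariate (-0.27). It was -0.54 in class 2 and -0.36 in class 1. With the same covariate Btg2 was -1.07, Eda2r -0.29, Cdkn1a -0.44 and Mdm2 -0.135.

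The promoters of Ccng1 and Rps27l, which had lower means in mutant mice with an unadjusted p under 0.05, and of Cdkn1a and Mdm2, whose intervals spanned 0, are shown because p53 acts through decamers in target DNA. They are RefSeq windows of build GRCm38.p6 that run 250 bases before to 50 bases after the annotated start, 5′ to 3′ on the gene's strand, with each match to the consensus p53 decamer in capitals.
Ccng1: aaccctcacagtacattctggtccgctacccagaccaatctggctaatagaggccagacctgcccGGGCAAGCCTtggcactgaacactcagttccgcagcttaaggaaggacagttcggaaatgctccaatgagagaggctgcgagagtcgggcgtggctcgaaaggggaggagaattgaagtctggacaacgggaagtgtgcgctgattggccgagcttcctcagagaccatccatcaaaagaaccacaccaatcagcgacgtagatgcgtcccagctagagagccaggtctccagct
Rps27l: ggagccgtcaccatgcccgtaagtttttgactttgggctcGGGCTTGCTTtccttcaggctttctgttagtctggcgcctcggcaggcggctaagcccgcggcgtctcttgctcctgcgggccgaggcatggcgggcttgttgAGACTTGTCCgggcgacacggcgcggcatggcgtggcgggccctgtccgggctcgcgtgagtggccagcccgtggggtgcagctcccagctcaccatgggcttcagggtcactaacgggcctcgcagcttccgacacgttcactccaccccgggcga
Cdkn1a: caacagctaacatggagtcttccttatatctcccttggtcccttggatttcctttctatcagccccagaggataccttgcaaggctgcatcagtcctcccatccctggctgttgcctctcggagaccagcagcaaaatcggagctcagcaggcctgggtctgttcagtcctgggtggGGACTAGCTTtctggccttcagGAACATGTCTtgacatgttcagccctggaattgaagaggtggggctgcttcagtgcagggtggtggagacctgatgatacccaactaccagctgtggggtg
Mdm2: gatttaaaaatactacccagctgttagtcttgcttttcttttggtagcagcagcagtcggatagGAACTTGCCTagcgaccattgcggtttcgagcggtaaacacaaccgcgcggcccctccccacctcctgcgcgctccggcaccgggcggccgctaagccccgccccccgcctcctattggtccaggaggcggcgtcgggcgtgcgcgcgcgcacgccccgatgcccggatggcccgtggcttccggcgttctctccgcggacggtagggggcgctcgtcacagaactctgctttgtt
The Ccng1 window lies at chr11:40755237-40755536 on the minus strand, with 1 decamer that begins at position -185 from the start. The Rps27l window lies at chr9:66946163-66946462 on the plus strand and holds 2 decamers, the first at position -210. The Cdkn1a window, at chr17:29090729-29091028 on the plus strand, holds 2 decamers at most 13 bases apart, the first at position -73. The Mdm2 window, at chr10:117710709-117711008 on the minus strand, holds 1 at position -186. The consensus is its own reverse complement, so both strands were searched at once.

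A promoter was in the table for 31 of the 41 listed targets and 12 of these held a decamer (38.7%), against 9.55% of the 27025 genes with a promoter. A gene was counted if any of its annotated windows held a match, and only windows with a match are shown above. A pair at most 13 bases apart was found for 1 target, Cdkn1a, and for 20 genes in all (0.0740%). Among the kept targets the median difference by p53 label was -0.13 over 11 with a decamer and -0.03 over 18 without. A match is a description of these letters and not a site in use, and the absence of a match says nothing of p53 binding elsewhere.

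Among p53 and its regulators, 13 of 17 measured genes had a higher mean in mutant mice, 2 of them with an unadjusted p under 0.05, against 2.74% of all genes. Cdkn2a, whose locus encodes p16 and p19Arf, an inhibitor of Mdm2, had values of 8.00, 3.16, 6.96 and 6.59 in mutant mice, against a lowest of 2.51, a median of 3.65 and a highest of 7.23 in not mutant mice. The 6.59 of mutant mouse 4 was the mean of 3.15 and 10.0 in its 2 tumours. The groups overlapped, and the difference was 2.04 ± 0.93 (unadjusted p = 0.0468, adjusted p = 0.898). Cdkn2a was split by the tumor_class label, with values of 6.96 to 10.0 in the 3 mutant and 6.20 to 7.23 in the 2 not mutant tumours of class 2. In class 1 it was 3.15 to 3.16 in the 2 mutant and 2.51 to 3.89 in the 7 not mutant tumours. With the class as a covariate the difference was 0.61. Chek2, a DNA damage checkpoint kinase that phosphorylates p53, differed by 0.49 ± 0.21 (unadjusted p = 0.0387). Cop1, a ubiquitin ligase of p53, differed by -0.18 ± 0.11, and Trp63, the p53 family member of basal epidermis, by 1.66 ± 1.31. The Trp63 sign turned with the class as a covariate (-0.28), and the difference was -0.50 in class 2 and -0.63 in class 1.

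Within the classes Ccng1 kept its direction. In class 2 it was 8.59 to 9.38 in the 3 mutant and 9.05 to 10.4 in the 2 not mutant tumours, and in class 1 it was 8.88 to 9.32 in the 2 mutant and 9.40 to 10.0 in the 7 not mutant tumours. The Ccng1 groups did not overlap in class 1. Rps27l was 10.8 to 11.0 in mutant and 11.1 to 11.2 in not mutant tumours of class 2, and 11.1 to 11.4 in mutant and 11.3 to 11.8 in not mutant tumours of class 1. Trp53inp1 was 8.08 to 9.34 in mutant and 8.64 to 9.18 in not mutant tumours of class 2, and 8.10 to 8.40 in mutant and 8.69 to 9.72 in not mutant tumours of class 1. The Zmat3 difference was -0.08 in class 2 and -0.58 in class 1. These are values of tumours, and no test was made within classes.

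In SCCs, 8 mice with the mutant label were set against 27 without, in animals not used above. The mutant SCCs were more often labelled poorly differentiated than the others. All of them were of tumor_class 2, and every class 1 SCC was not mutant. The SCC and interaction fits described here held no covariate, so the p53 label cannot be told apart from these labels in them. There 14 genes (0.109%) passed adjustment, 11 higher and 3 lower, and none of them had an unadjusted p under 0.05 in the spindle carcinomas. The SCC median over the 38 targets was -0.09. At an unadjusted p under 0.05 in SCC, 10 of these targets had a lower and 2 a higher mean. Over all genes 1318 (10.3%) were under 0.05 there, 782 with a higher and 536 with a lower mean. Past adjustment in SCC were 2 targets. Psrc1, a microtubule-associated protein of the mitotic spindle, differed by -1.25 ± 0.25 in SCC (adjusted p = 0.0388) and by -0.05 ± 0.26 in spindle carcinomas. Polk, a translesion DNA polymerase, differed by -0.79 ± 0.16 in SCC (adjusted p = 0.0388) and by 0.28 ± 0.18 in spindle carcinomas.

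The difference between the 2 tumour forms, tested as an interaction over the same genes, passed adjustment for no gene (percent called 0, 797 or 6.23% at an unadjusted p under 0.05). It was 1.20 for Psrc1 (unadjusted p = 0.00617, adjusted p = 0.757) and 1.07 for Polk (unadjusted p = 0.00025, adjusted p = 0.747). Ccng1 differed by -0.65 ± 0.19 in SCC, and its interaction of -0.03 had an adjusted p of 0.988. Trp53inp1 and Ephx1, a detoxifying epoxide hydrolase, differed by -0.95 and -1.41 in SCC, neither past adjustment, and by -0.60 and -0.42 in spindle carcinomas. In all, 21 of 38 targets had the same sign in both forms, and the share of all genes with the same sign is not given here.

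**Figure D2:**
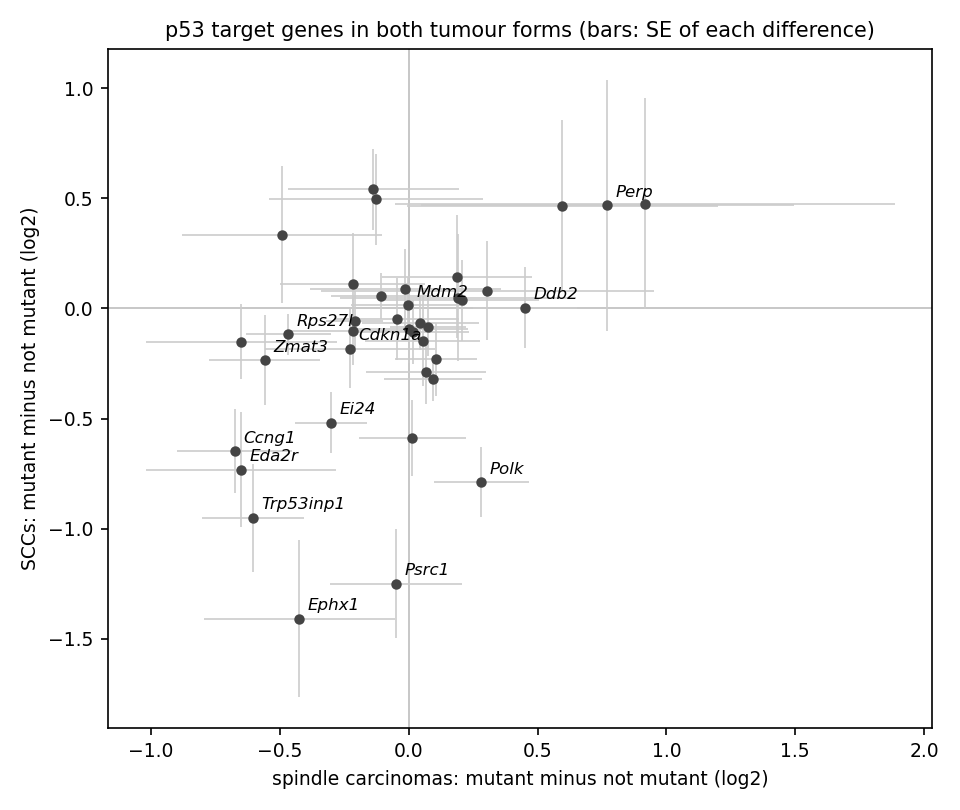
Differences by p53 label (log2, mutant minus not mutant) of 38 p53 target genes in spindle carcinomas (horizontal axis) and in SCCs (vertical axis), with standard errors as grey bars. Ccng1, Trp53inp1, Eda2r and Ei24 lie below 0 on both axes, Polk lies below 0 in SCC alone, and Psrc1 lies at -1.25 in SCC and -0.05 in spindle carcinomas.

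The genes of smallest unadjusted p were not p53 targets, and none of the 20 leading genes passed adjustment. The smallest p belonged to Sh3tc2, an endosomal adaptor known for its role in myelinating Schwann cells. It had 6.52, 5.55, 6.58 and 5.71 in mutant mice, against a lowest of 4.37, a median of 4.66 and a highest of 5.45 in not mutant mice, so the mouse values did not overlap. The 2 tumours of mutant mouse 4 had 5.28 and 6.13, the first of them inside the not mutant range. The difference was 1.29 ± 0.24 (unadjusted p = 9.92e-05, adjusted p = 0.898). Fcgbp, which encodes a mucus protein that binds the Fc part of IgG, had 6.38, 6.39, 6.96 and 5.88 in mutant mice, against a lowest of 5.16, a median of 5.62 and a highest of 5.85 in not mutant mice. The mouse values did not overlap, though the tumours of mutant mouse 4, at 5.44 and 6.32, again lay in and above the not mutant range. The difference was 0.86 ± 0.19 (unadjusted p = 0.000462).

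Some larger differences varied more between animals. Alox12e, an epidermal lipoxygenase gene, had 9.35, 5.94, 9.12 and 7.62 in mutant mice, against a lowest of 4.89, a median of 5.51 and a highest of 6.34 in not mutant mice. It followed the tumor_class label in part. The 3 class 2 mutant tumours had 9.12 to 10.6, against 5.91 to 6.34 in the 2 not mutant ones, and the class 1 tumours had 4.62 to 5.94 in mutant and 4.89 to 5.90 in not mutant mice. The difference was 2.43 ± 0.50, and without mutant mouse 2 it was 3.12 with an adjusted p of 0.00985. Gabrp, a GABA receptor subunit, differed by 1.65 ± 0.40, and without mutant mouse 2 by 2.27 (adjusted p = 0.00324). Plekhs1, a pleckstrin homology domain gene named because it was the third gene called without mutant mouse 2, differed by 2.05 overall and by 2.83 without it (adjusted p = 0.0495). Mutant mouse 2 was the only mutant animal with no class 2 tumour, and it had the lowest mutant value of all 3 genes. Leaving it out thus favoured these genes, and the adjusted p does not allow for that. In class 2 Gabrp differed by 2.91 and Plekhs1 by 3.06, and in class 1 by -0.14 and -0.16.

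Rnase2a, Ccl24 and Adamdec1 were also among the leading genes with a higher mean. Rnase2a, a member of the eosinophil-associated ribonuclease family, had 9.36, 7.04, 6.44 and 8.00 in mutant mice. In the not mutant mice the lowest value was 4.06, the median 4.52 and the highest 7.56, the last in not mutant mouse 4, with the others at 4.84 or below. The difference was 2.97 ± 0.62 (adjusted p = 0.898). Without that animal, whose value went most against it, the difference was 3.32 with an adjusted p of 0.0335. Closely related members of this ribonuclease family may share probes, and the sources used here do not settle which member was measured. Ccl24, eotaxin-2, an attractant of eosinophils, had 6.90, 8.12, 9.09 and 6.10 in mutant mice, against a lowest of 5.14, a median of 5.56 and a highest of 6.51 in not mutant mice. Adamdec1, a metalloprotease of macrophages and dendritic cells, had 6.10, 6.25, 6.08 and 5.88 in mutant mice, against a lowest of 2.78, a median of 3.25 and a highest of 6.89 in not mutant mice. All but not mutant mouse 3 lay below every mutant mouse value, but the 5.88 of mutant mouse 4 was the mean of 3.82 and 7.94 in its tumours, and the first of these lay within the range of the other not mutant mice. The mutant SD of 0.15 rests on that mean. Without not mutant mouse 3, the animal most against it, the difference of 2.35 (adjusted p = 0.898) was 2.75 with an adjusted p of 0.000803. Leaving out such an animal favours the gene, and the adjusted p does not allow for that. Among the other leading genes with a higher mean were Greb1, an oestrogen-responsive gene (1.20, with other probe sets below the filter at -0.193, 0.566 and -0.168), Pwwp2b, a chromatin protein (0.72), and Tubgcp6, of the gamma-tubulin ring complex (0.57). The not mutant means of Greb1 (3.95) and Adamdec1 (3.73) lay below every array median, of which the lowest was 4.43.

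**Figure D3:**
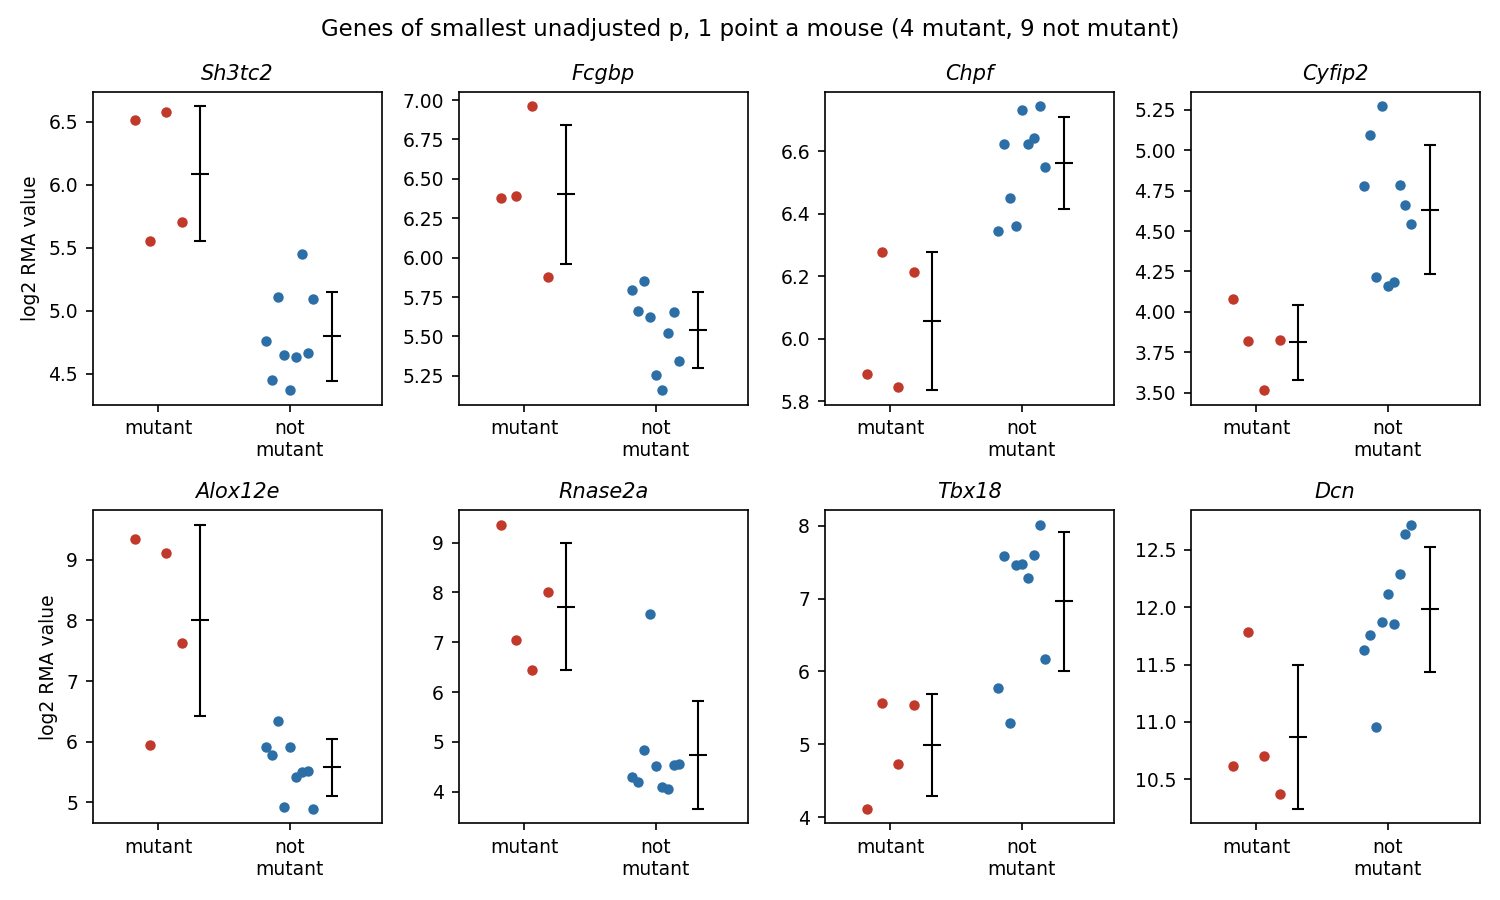
Log2 RMA values (vertical axis) of 8 leading genes in 4 mutant mice (left, red) and 9 not mutant mice (right, blue), 1 point a mouse, with the mean and SD as black bars. The mouse values do not overlap for Sh3tc2, Fcgbp, Chpf and Cyfip2, where mutant mouse 4 is the mean of 2 tumours, and 1 not mutant mouse lies among the mutant mice for Rnase2a; none passed adjustment.

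Chpf, Dcn and Tbx18 were among the 10 leading genes with a lower mean. Chpf, which polymerises chondroitin sulphate chains, had 5.89, 6.28, 5.85 and 6.22 in mutant mice, against a lowest of 6.35, a median of 6.62 and a highest of 6.74 in not mutant mice. The mouse values did not overlap, but the first tumour of mutant mouse 4 was at 6.51, inside the not mutant range, and the second at 5.92. The difference was -0.51 ± 0.13 (unadjusted p = 0.00138, adjusted p = 0.898). Dcn, the collagen-binding proteoglycan decorin, had 10.6, 11.8, 10.7 and 10.4 in mutant mice, against a lowest of 10.9, a median of 11.9 and a highest of 12.7 in not mutant mice. Among the mouse values mutant mouse 2 alone lay inside the not mutant range, and the difference was -1.11 ± 0.32. The 10.4 of mutant mouse 4 was the mean of 11.7 and 9.02 in its 2 tumours, the first of them inside that range. Tbx18, a mesenchymal T-box transcription factor, had 4.11, 5.57, 4.73 and 5.54 in mutant mice, against a lowest of 5.29, a median of 7.46 and a highest of 8.01 in not mutant mice. The 5.54 of mutant mouse 4 was the mean of 6.66 and 4.42 in its 2 tumours. The Tbx18 difference was -1.97 ± 0.49 in spindle carcinomas and 0.46 ± 0.32 in SCCs, with an interaction of -2.43 (unadjusted p = 0.000177, adjusted p = 0.747). With tumor_class as a covariate the spindle difference was -1.30.

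The other leading genes with a lower mean were of mixed function. Cyfip2, a regulator of actin assembly, had a highest value of 4.08 in mutant mice and a lowest of 4.16 in not mutant mice, at levels below the array medians of 4.43 to 4.56 in all mutant animals. Its difference was -0.82, and its other probe sets gave -0.24 and, below the filter, -0.125. Cd37, a leukocyte tetraspanin, differed by -0.90 ± 0.25, and Slc11a1, a phagosomal metal transporter of macrophages, by -0.88 ± 0.25. In the 2 tumours of mutant mouse 4 Cd37 was 6.77 and 4.47, and Slc11a1 7.13 and 5.34. The other Cd37 probe set gave -0.23. Pilrb1, an activating receptor of myeloid cells, differed by -0.67, and Npr2, the receptor of C-type natriuretic peptide, by -0.92. Ogfrl1 differed by -0.67 and Tctn3, of the ciliary transition zone, by -0.89, or by -0.55 with tumor_class as a covariate. Of the 20 leading genes, 11 had the same sign in SCC, and the share of all genes with the same sign is not given here. Of the 20, 1, Greb1, had an unadjusted p under 0.05 in SCC, with a difference of 0.92.

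Epithelial genes had higher means in mutant mice throughout their list, at differences smaller than the spread. All 25 measured epithelial adhesion genes had a higher mean, with a median difference of 0.99, and none had an unadjusted p under 0.05. All 4 mutant mice were above the not mutant median in 12 of the 25, against 10.2% of all genes. Krt18, a simple epithelial keratin, differed by 2.06 ± 1.02, the tight junction gene Cldn4 by 2.16 ± 1.31, Epcam by 2.09 ± 1.30 and Cdh1, E-cadherin, by 1.40 ± 0.85. The other Epcam probe set, of lower mean, gave 0.08. Of the 20 squamous keratin and envelope genes 18 had a higher mean, with a median of 0.69, Krt5 at 1.34 ± 1.24 and Ivl, involucrin, at 2.07 ± 1.31. The direction of this list mean turned within the classes. It was 8.80 to 9.91 in mutant and 10.2 to 10.4 in not mutant tumours of class 2, a difference of -0.93, and 4.37 to 7.51 in mutant and 4.84 to 7.94 in not mutant tumours of class 1, a difference of -0.89.

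The epithelial list mean was 8.61, 6.57 and 9.31 in mutant mice 1 to 3, and 5.24 and 9.68 in the 2 tumours of mutant mouse 4. In not mutant mice the lowest was 5.05, the median 6.38 and the highest 9.19. Both groups held tumours at high and at low levels with few between. The split followed the tumor_class label: the list mean was 8.61 to 9.68 in mutant and 9.07 to 9.19 in not mutant tumours of class 2, and 5.24 to 6.57 in mutant and 5.05 to 7.17 in not mutant tumours of class 1. Within the classes the difference by p53 label was 0.07 in class 2 and -0.24 in class 1. With the class as a covariate the difference was 0.21 for Epcam, 0.14 for Cldn4, 0.17 for Cdh1, 0.12 for Ivl and -0.38 for Krt5.

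**Figure D4:**
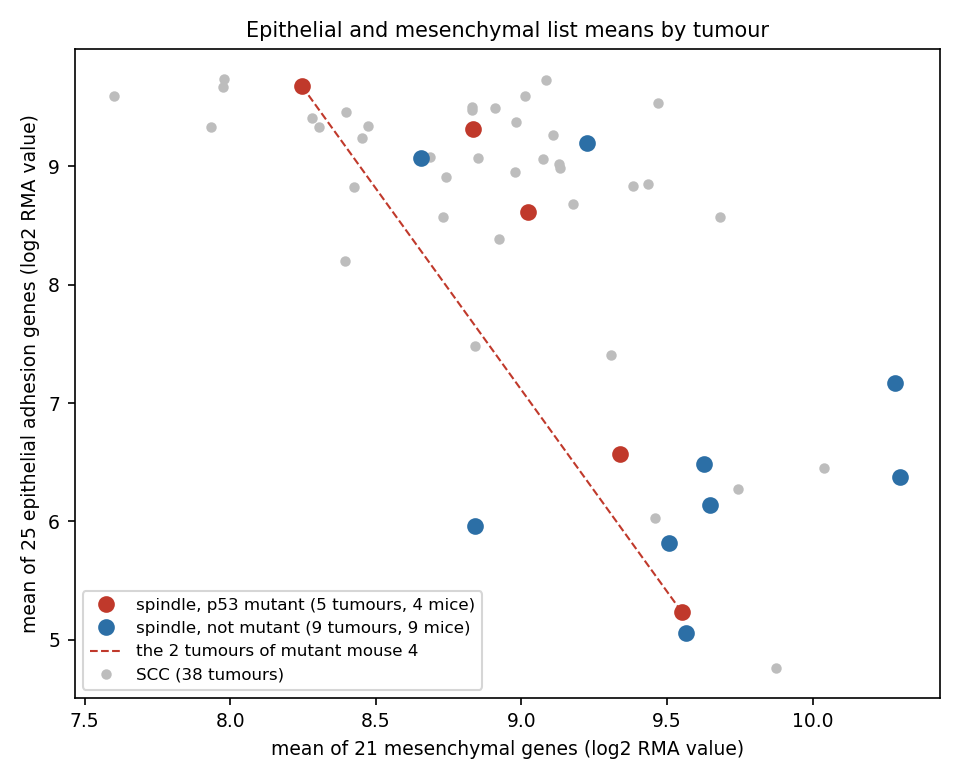
Mean log2 RMA value of 25 epithelial adhesion genes (vertical axis) against that of 21 mesenchymal genes (horizontal axis), 1 point a tumour: 5 mutant spindle carcinomas (red), 9 not mutant spindle carcinomas (blue) and 38 SCCs (grey). Both spindle groups have tumours among most SCCs and tumours at low epithelial levels, and the dashed line joins the 2 tumours of mutant mouse 4, at 5.24 and 9.68.

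Mesenchymal and matrix genes had lower means in most cases. Of 21 mesenchymal genes 15 had a lower mean, with a median of -0.54, and all 4 mutant mice were below the not mutant median in 10, against 11.4% of all genes. Prrx1, a mesenchymal homeobox gene, differed by -1.14 ± 0.53 (unadjusted p = 0.0494) and Cdh2, N-cadherin, by -1.96 ± 0.97. Vim differed by -0.61 ± 0.43, and Zeb1, a repressor of E-cadherin, by -0.66 ± 0.53. With tumor_class as a covariate both signs turned, to 0.0234 for Vim and 0.104 for Zeb1, and Prrx1 was -0.47. Of 22 collagen and matrix genes 19 had a lower mean, 4 with an unadjusted p under 0.05 against 2.24% of all genes, and 13 with all 4 mutant mice below the not mutant median. Lum, the proteoglycan lumican, differed by -1.02 ± 0.51. The matrix list mean was 9.88 to 11.0 in mutant and 10.9 to 11.4 in not mutant tumours of class 2, and 10.4 to 10.5 in mutant and 9.05 to 11.7 in not mutant tumours of class 1. Tgfbr3, the TGF-beta co-receptor betaglycan, differed by -1.09 ± 0.41, or by -0.59 with the class as a covariate.

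Proliferation genes differed little as groups, with Ccnd1 and Mcm7 as the members of smallest p. Ccnd1, cyclin D1, had 12.0, 11.9, 11.9 and 12.1 in mutant mice, against a lowest of 9.99, a median of 10.9 and a highest of 12.9 in not mutant mice. The mutant values were close together and above all not mutant animals but mouse 4. The difference was 0.93 ± 0.39 (unadjusted p = 0.0336, adjusted p = 0.898), and it was 0.82 in class 2 and 1.07 in class 1. Mcm7, a subunit of the replicative helicase, had a mean of 10.5 in mutant and 10.0 in not mutant mice, a difference of 0.52 ± 0.18 (unadjusted p = 0.0129). The mitosis list, with 25 of 29 genes higher, had a median of 0.10 and none with an unadjusted p under 0.05. In none of the 29 were all 4 mutant mice above the not mutant median, against 10.2% of all genes. Mki67, the proliferation marker Ki-67, differed by 0.40 ± 0.26. Cdkn1c, the inhibitor p57, differed by -1.03 ± 0.65. Mgmt, which removes alkyl groups from guanine, differed by -0.58 ± 0.21 (unadjusted p = 0.0156) and by -0.76 ± 0.23 in SCC.

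RAS and hypoxia genes had higher means in most cases. Of 17 RAS-MAPK output genes 12 had a higher mean and in 8 all 4 mutant mice were above the not mutant median, against 10.2% of all genes. Dusp4, a phosphatase that ERK signalling induces, differed by 0.85 ± 0.38 (unadjusted p = 0.0435), Hbegf, an EGF receptor ligand, by 1.25 ± 0.58, and Epha2, a receptor kinase, by 0.90 ± 0.45. In class 2 Hbegf differed by -0.21, Epha2 by -0.12 and the RAS-MAPK list mean by 0.08, and in class 1 by 1.23, 0.96 and 0.55. With the class as a covariate Hbegf was 0.64 and Epha2 0.28. Of 18 hypoxia and glycolysis genes 17 had a higher mean, with a median of 0.31. In 2 of the 18 all 4 mutant mice were above the not mutant median, near the 10.2% of all genes. Egln3, a prolyl hydroxylase that hypoxia induces, had 9.26, 8.81, 9.70 and 10.0 in mutant mice, against a lowest of 6.23, a median of 7.94 and a highest of 9.18 in not mutant mice. Among the mouse values mutant mouse 2 alone overlapped, and the difference was 1.55 ± 0.54 (unadjusted p = 0.0126). The 10.0 of mutant mouse 4 was the mean of 8.19 and 11.9 in its 2 tumours, the first of them inside the not mutant range. Vegfa, the angiogenic growth factor, differed by 0.74 ± 0.35, or by 0.435 with the class as a covariate.

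Inflammatory, neutrophil and B cell markers had lower means in most cases. Of 20 IL1 and inflammation genes 14 had a lower mean, with a median of -0.58, and Il1b, the cytokine, had a mean of 9.06 in mutant and 10.3 in not mutant mice, a difference of -1.20 ± 0.49 (unadjusted p = 0.0280). In SCC the Il1b difference was 0.51 ± 0.28 and the interaction -1.72 (unadjusted p = 0.00277, adjusted p = 0.747). Il1r2, the decoy receptor, differed by -0.996 ± 0.49. Of 10 neutrophil markers 9 had a lower mean (median -0.89, list mean 5.88 to 7.49 in mutant and 6.05 to 9.11 in not mutant mice). Ngp, a neutrophil granule protein, differed by -1.81 ± 0.94. Of 11 macrophage markers 9 had a lower mean (list mean 9.20 to 9.84 in mutant and 8.74 to 10.7 in not mutant mice), with Cd14, the co-receptor for lipopolysaccharide, at -0.89 ± 0.40 and Cd163, a haemoglobin scavenger receptor, at 1.08 ± 0.69. The macrophage list mean was higher in mutant tumours within both classes, by 0.27 in class 2 and 0.11 in class 1. All 5 measured B and plasma cell markers had a lower mean (list mean 4.71 to 5.93 in mutant and 5.06 to 8.37 in not mutant mice), with Jchain, the joining chain of immunoglobulins, at -1.67 ± 0.88. Striated muscle markers had a list mean of 4.5 to 8.03 in mutant and 6.53 to 9.28 in not mutant mice, and adipocyte markers 5.33 to 6.22 and 5.33 to 6.70, where 3 of 6 had a higher mean (median -0.04). Of these Lipe, hormone-sensitive lipase, was at 0.62 ± 0.23 (0.37 with the class as a covariate). The part of these cells in the differences of other genes was not tested.

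By chromosome, the share of genes with a higher mean at an unadjusted p under 0.05 was 7.02% on chromosome 5 (57 of 812), 5.21% on chromosome 3 (34 of 652), 4.81% on chromosome 18 (15 of 312) and 4.60% on chromosome 7 (46 of 999), against 2.74% of all genes. The share with a lower mean was 4.38% on chromosome 19 (20 of 457) and 4.23% on chromosome 1 (31 of 733), against 2.24% of all genes. The median over chromosome 5 genes, each relative to its not mutant mean, was 0.13, 0.18, 0.15 and -0.02 in mutant mice 1 to 4, against -0.08 to 0.13 in not mutant mice. Of the genes named above, Chek2, Mcm7, Ccl24 and Cldn4, with higher means, and Pilrb1, Tgfbr3 and Jchain, with lower means, lie on this chromosome. On chromosome 3 mutant mouse 1 stood alone at 0.49, with the other mutant mice between -0.15 and 0.09 and the not mutant mice between -0.10 and 0.03. On chromosome 7, where Ccnd1 lies, the values were 0.17, -0.10, 0.31 and -0.06 in mutant mice and -0.17 to 0.14 in not mutant mice. In SCCs the median difference by p53 label was 0.10 on chromosome 5, -0.0043 on chromosome 3 and -0.06 on chromosome 7. DNA copy number was not analysed here, and its part in these values was not tested.

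**Figure D5:**
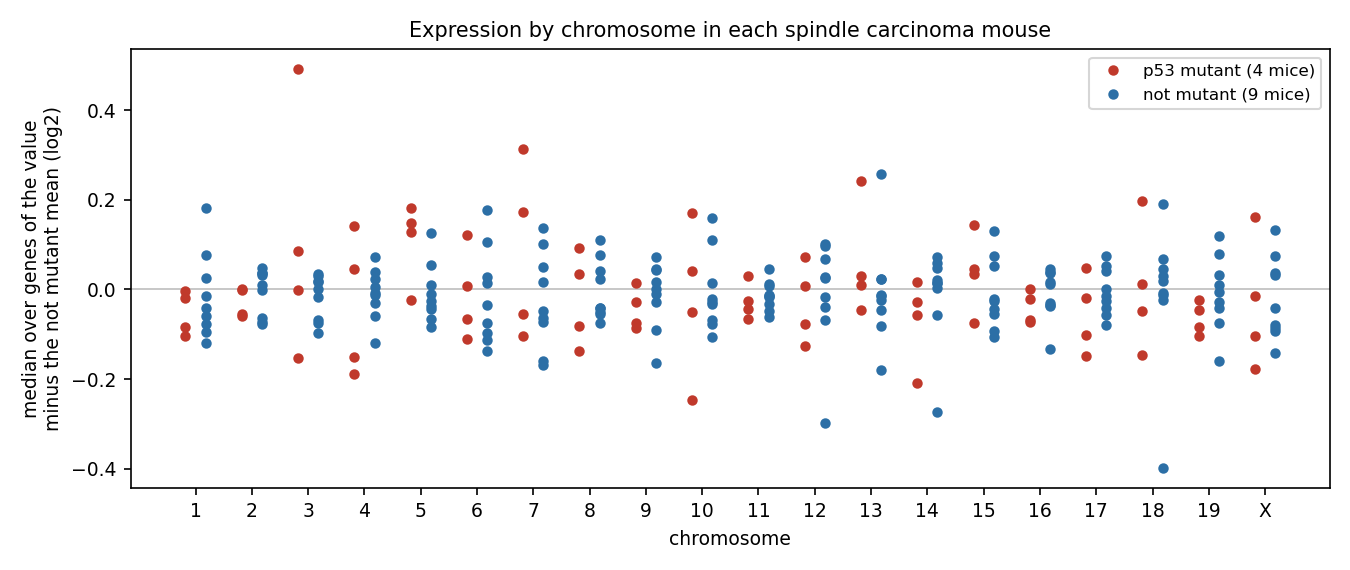
Median over the genes of each chromosome (horizontal axis) of the log2 value minus the gene's not mutant mean (vertical axis), in 4 mutant mice (left of each pair, red) and 9 not mutant mice (right, blue). Mutant mouse 1 stands at 0.49 on chromosome 3, and mutant mice 1 to 3 are at 0.13 to 0.18 on chromosome 5, where the highest not mutant mouse is at 0.13.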

How the data were processed

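Total RNA of each carcinoma was hybridised to an Affymetrix Mouse Genome array. The authors deposited log2 probe set values from RMA (background correction, quantile normalisation over the arrays and summary of probes), so that a shift shared by most genes would be removed. The version and any genome build are not given in the sources used here. Of 45101 probe sets, 34958 had 1 gene symbol, 932 several and 9211 none given. Symbols were updated through RefSeq (GRCm38.p6; 34754 matched), and the probe set of highest mean over all arrays was taken for each of 18194 genes. Genes above the array median on at least 8 of 60 arrays were kept (12791). Tumours of a mouse were averaged.

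The 4 mutant and 9 not mutant mice were compared with limma 3.58.1 in R 4.3.3 (lmFit, eBayes, two-sided, Benjamini-Hochberg over all genes kept, threshold 0.05), and the interaction with SCC over the 48 mice of both histologies. The script was tested on simulated data. SAM, used by the study for papillomas, was not run. Precision is limited by the number of arrays, which give no counts. Nothing in the labels gives a scan date or batch.

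The members and lists were chosen with earlier results of these data known. Named genes are the 10 of smallest p in each direction, since none passed, the p53 lists and up to 3 of largest difference in each other list; further list members and the marker genes serve for context. Each list is described by counts and its median beside all genes. Alternatives were other filters, tumour choices, probe set rules, scalings, covariates and leaving out each mouse. Labels were compared with exact tests in scipy 1.17.1, and figures drawn with matplotlib 3.10.9 (Python 3.11.15, numpy 2.4.6, pandas 2.3.3, data.table version 1.17.8).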

Additional observations from a re-analysis of the deposited data

Results flagged for a closer look

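In 140 groups of mice (70 genes, the 4 mutant and the 9 not mutant mice each), 13 had a highest or lowest animal far from the rest by Dixon's test, and chance gives about 1 in 20. Among mutant mice these were Gabrp in mouse 2 (5.08, against 7.71 at the highest), Cop1 in mouse 1 (9.43), Zmat3 in mouse 3 (6.66), Krt18 in mouse 3 (11.2) and Fn1, fibronectin, in mouse 2 (13.2). Among not mutant mice they were Rnase2a (7.56) and Cop1 (9.64) in mouse 4, Adamdec1 (6.89), Tgfbr3 (8.70) and Plekhs1 (5.90) in mouse 3, Pilrb1 (7.65) and Lipe (6.68) in mouse 1, and Cdkn1c (8.65) in mouse 2. No gene named here had an interaction between p53 label and tumour form past adjustment.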

How the results depend on the processing

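The count of genes past adjustment by p53 label in spindle carcinomas was 0 under all alternatives that kept the 13 mice, and 0 to 3 when each mouse was left out in turn. Without mutant mouse 2 there were 3 calls (Alox12e, Gabrp and Plekhs1), without not mutant mouse 3 there was 1 (Adamdec1) and without not mutant mouse 4 there was 1 (Rnase2a), all higher in mutant mice. For each of these genes the animal left out had the value most against the difference. The adjusted p does not allow for that. The count was also 0 without the mice that had a sex marker against the label and with only poorly differentiated tumours. The p53 target median difference lay between -0.163 with tumor_class as a covariate and 0.0162 in the leave-one-out fits. The SD of the list mean over mice was 0.161, which is a spread between animals and not the error of that median. The interaction count was 0 throughout, and the SCC count of 14 was 20 without the filter and 19 with trend and robust moderation. With tumor_class as a covariate the signs turned for Trp63 (-0.275), Perp (-0.271), Krt5 (-0.382), Vim (0.0234), Zeb1 (0.104), Fn1 (0.133) and Psrc1 (0.215). Differences near 0 also turned. Psrc1 was 0.0395 with every tumour kept, 0.00916 with only the second tumour of mutant mouse 4, 0.0295 with poorly differentiated tumours and -0.236 to 0.172 over the leave-one-out fits. Mdm2 was 0.0012 with every tumour kept, 0.0749 with the second tumour, 0.1 with backcross origin as a covariate and -0.0693 to 0.109 over the leave-one-out fits. The correlation within a mouse (0.152) was estimated over all 60 arrays, since only 1 mouse had 2 spindle carcinomas. No paired analysis was possible because the p53 groups hold different mice and replicate numbers follow only the order of the samples. With 4 mutant mice the number of arrays limits what can be seen.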

Other observations

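The 2 carcinomas of mutant mouse 4 differed by more than 1 on the log2 scale in 25.6% of genes, against 2.45% to 20.0% in the other 4 mice with 2 carcinomas. Interferon response genes averaged 8.68 in the first and 5.44 in the second tumour, and macrophage markers 10.6 and 8.13. The squamous keratin and envelope list averaged 4.37 and 9.35, and mitosis genes 8.25 and 6.79.

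For the lists not described above, the median difference by p53 label was 0.21 over 18 DNA replication genes (14 with a higher mean), 0.22 over 17 DNA repair genes (12 with a higher mean), 0.02 over 17 interferon genes and 0.13 over 17 TGF-beta pathway genes. It was -0.52 over 6 MHC class II genes, all 6 with a lower mean and none with an unadjusted p under 0.05. The median was 0.06 over 8 T and NK cell markers, -0.31 over 8 mast cell markers, -0.22 over 11 endothelial markers, -0.24 over 4 melanocyte markers and -0.30 over 10 hair follicle genes.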
